A study of Mus musculus with 18 samples.

Results

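The Wnt ligands are secreted, lipid-modified glycoproteins that bind Frizzled receptors on nearby cells. The 10 ligands described here were chosen by name from 47729 genes in the count table of a mouse colon RNA-Seq experiment. They are *Wnt2*, *Wnt2b*, *Wnt3*, *Wnt4*, *Wnt5a*, *Wnt5b*, *Wnt6*, *Wnt9a*, *Wnt10a* and *Wnt11*. The experiment asked how claudin-2, a pore-forming tight junction protein encoded by *Cldn2*, alters the colon in colitis-associated cancer (CAC). RNA came from the colon of 9 C57BL/6 mice. Each of the 3 groups held 3 of them. The label Control marked the naive WT mice (mice 1 to 3). WT CAC mice (mice 4 to 6) carried the label AOM-DSS, for the carcinogen azoxymethane followed by cycles of dextran sulfate sodium, an irritant that causes colitis. *Cldn2*TG CAC mice (mice 7 to 9, genotype label Claudin-2TG) were given AOM-DSS as well and carried a *Cldn2* transgene under the Villin promoter, which is active in the intestinal epithelium. The deposited treatment text also names AOM and DSS for samples labelled Control, so the treatment label alone defines the naive WT group. No naive transgenic mice were analysed here, and ages were not given in the sources used here.

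Wnt ligands that act through beta-catenin bind a Frizzled receptor together with Lrp5 or Lrp6. Beta-catenin then escapes degradation and turns on target genes with the transcription factors of the TCF/LEF family. Other ligands, with Wnt5a as the best studied, act through Ror receptors on cell shape and movement and can oppose beta-catenin. In the normal intestine, Wnt signals made by stromal cells below the crypts and, in the small intestine, by Paneth cells keep stem cells dividing. Mutations that switch on beta-catenin start most tumors of the intestine, and AOM tumors of the mouse colon commonly carry them.

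*Wnt6* and *Wnt10a* are neighbors on chromosome 1 and lie on the same strand. On GRCm38, *Wnt6* (ENSMUSG00000033227) spans chr1:74771892-74785322 and *Wnt10a* (ENSMUSG00000026167) spans chr1:74791516-74804179, with 6.2 kb between them. *Wnt3* (ENSMUSG00000000125) lies at chr11:103774150-103817957, 24.3 kb from *Wnt9b*, and *Wnt9a* lies on the same chromosome, 16.2 kb from *Wnt3a*. *Wnt4* (ENSMUSG00000036856) lies at chr4:137277489-137299726 and *Wnt5a* (ENSMUSG00000021994) at chr14:28504750-28527447. All 10 ligands are protein-coding genes. The promoters of 3 ligands whose RNA was called higher in WT CAC mice are printed because they show the GC boxes common to the start regions of the ligands. They run 5′ to 3′ on the plus strand, from the first base of the RefSeq promoter window (GRCm38.p6) to the base before the gene's start in the count table. For *Wnt4* and *Wnt3* that start lies before the RefSeq start, so shorter stretches are shown. Capitals mark the GC box GGGCGG or its reverse complement. *Wnt6* is shown at chr1:74771642-74771891, *Wnt4* at chr4:137277385-137277488 and *Wnt3* at chr11:103773925-103774149.
Wnt6: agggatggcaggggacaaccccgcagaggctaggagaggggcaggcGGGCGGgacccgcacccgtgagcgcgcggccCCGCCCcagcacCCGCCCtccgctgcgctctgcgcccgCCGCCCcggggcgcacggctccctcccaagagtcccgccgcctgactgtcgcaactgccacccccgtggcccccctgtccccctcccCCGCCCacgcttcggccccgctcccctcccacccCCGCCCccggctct
Wnt4: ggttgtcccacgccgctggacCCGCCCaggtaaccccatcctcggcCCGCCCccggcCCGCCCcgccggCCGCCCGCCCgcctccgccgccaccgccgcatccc
Wnt3: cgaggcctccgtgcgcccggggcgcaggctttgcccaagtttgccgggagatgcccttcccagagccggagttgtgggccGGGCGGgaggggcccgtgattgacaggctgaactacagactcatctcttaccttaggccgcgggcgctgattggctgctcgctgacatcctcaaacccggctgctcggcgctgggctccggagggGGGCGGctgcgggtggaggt

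The RefSeq promoter table held 8 of the 10 ligands, with 11 start sites and windows of 300 bases that reach 250 bases before the start. *Wnt5a* and *Wnt10a* were the ligands without an entry. A GC box stood in 10 of these 11 windows and in at least 1 window of each of the 8 ligands, against 35.7% of the 32851 promoters of the whole table. The letters CTTTGA, the core bound by TCF/LEF factors, were found on either strand in 2 windows, 1 of *Wnt5b* and 1 of *Wnt11*, against 16.0% of all promoters. The AP-1 letters TGANTCA, the STAT letters TTCNNNGAA and the TATA box TATAAA were each found in 1 window, against 7.81%, 8.30% and 13.6% of all promoters. No window of *Wnt3*, *Wnt4* or *Wnt6* held CTTTGA.

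The libraries held 14142711 to 22262546 counts per mouse. Mitochondrial genes took 2.86% to 3.50% of them in naive WT, 3.54% to 4.69% in WT CAC and 4.58% to 5.76% in *Cldn2*TG CAC mice. Epithelial markers (7 genes, among them *Epcam* and *Vil1*) summed to 14150 to 19360 CPM (counts scaled to the size of each library) in all 9 mice, as the colon label implies. *Cldn2*, the transgene's product, stood at 192, 259 and 245 CPM in naive WT, 119, 137 and 132 CPM in WT CAC and 208, 218 and 251 CPM in *Cldn2*TG CAC mice. It was higher in *Cldn2*TG CAC than in WT CAC mice by 0.78 ± 0.12 (log2 fold change ± SE; edgeR quasi-likelihood test, Benjamini-Hochberg adjusted p = 0.0103). It was lower in WT CAC than in naive WT mice on the log2 scale, with -0.82 ± 0.14 (adjusted p = 0.0138), and between *Cldn2*TG CAC and naive WT mice the difference was -0.03, with a 95% interval from -0.30 to 0.24 and overlapping groups. The first of these calls was lost without mouse 8 or 9 (0.0580 and 0.0597) and the second without mouse 2 or 3 (0.0635 and 0.0554). The *Cldn2* counts do not separate the transgene from the mouse's own gene. Mouse 1 held 214 CPM of the female transcript *Xist* and the other 8 mice 0.203 CPM or less, so naive WT was the group of mixed sex.

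In naive WT colon all 10 ligands were scarce. The mean level per exon length was highest for *Wnt5b*, with 0.635 ± 0.208 CPM per kb (SD, n = 3), followed by *Wnt6* with 0.494 ± 0.127, *Wnt5a* with 0.323 ± 0.107 and *Wnt4* with 0.289 ± 0.0368 CPM per kb. *Wnt2b*, *Wnt9a*, *Wnt11* and *Wnt2* came next, from 0.222 ± 0.105 down to 0.0672 ± 0.0674 CPM per kb. *Wnt3* and *Wnt10a* were last, with 3 and 2 counts in the 3 mice together. The ranges of neighbors in this order overlapped at every step. In WT CAC mice the order changed at the top. *Wnt6* stood first with 9.55 ± 7.36 CPM per kb and *Wnt10a* second with 6.71 ± 6.54 CPM per kb. *Wnt5a*, *Wnt5b*, *Wnt4* and *Wnt3* followed at 1.31 ± 0.552, 1.19 ± 0.535, 0.970 ± 0.283 and 0.495 ± 0.441 CPM per kb, and the remaining 4 ligands were between 0.0641 and 0.135 CPM per kb. The single gap between neighbors whose ranges did not overlap lay between *Wnt3* and *Wnt11*. In *Cldn2*TG CAC mice *Wnt6* was first with 0.509 ± 0.0623 CPM per kb, *Wnt5b* second with 0.424 ± 0.173 and *Wnt10a* last with 0.0230 ± 0.0210 CPM per kb. There the single gap lay between *Wnt2b* and *Wnt2*.

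Summed over the 10 ligands, the level per length was 2.75, 1.95 and 2.42 CPM per kb in the naive WT mice. It was 8.59, 15.9 and 37.5 CPM per kb in the WT CAC mice and 2.43, 1.80 and 1.86 CPM per kb in the *Cldn2*TG CAC mice. Every WT CAC mouse lay above all 6 other mice, and the WT CAC mice differed among themselves more than the mice of either other group. *Wnt6* and *Wnt10a* together made up 18.9% to 24.6% of this sum in naive WT, 67.7% to 85.4% in WT CAC and 23.2% to 33.1% in *Cldn2*TG CAC mice. *Wnt4*, *Wnt5a* and *Wnt5b* together took 52.1% ± 4.60 in naive WT, 20.9% ± 8.75 in WT CAC and 44.3% ± 10.6 in *Cldn2*TG CAC mice (SD, n = 3 each). The share of *Wnt2*, *Wnt2b*, *Wnt9a* and *Wnt11* was 26.0% ± 7.60, 2.69% ± 1.34 and 22.6% ± 6.69 in the same order.

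**Figure D1:**
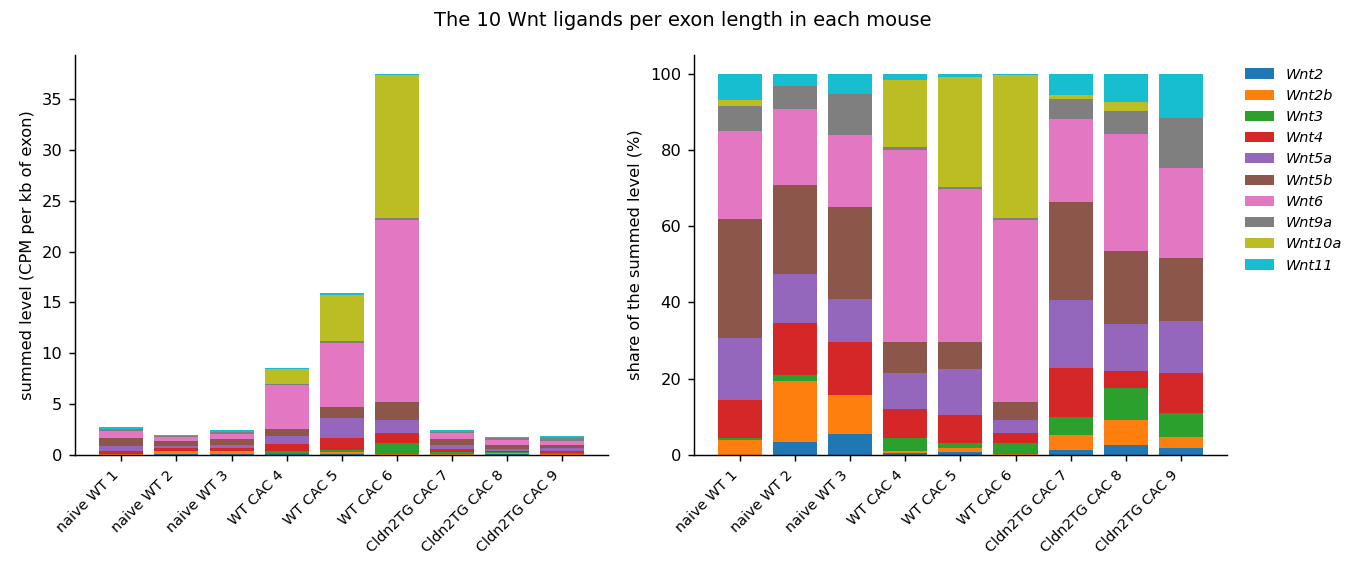
Level per exon length of the 10 Wnt ligands in each of the 9 mice, stacked by ligand, as CPM per kb (left) and as a percentage of the mouse's sum (right). The WT CAC bars reach 8.59, 15.9 and 37.5 CPM per kb and consist mostly of *Wnt6* and *Wnt10a*, while the other 6 bars lie between 1.80 and 2.75 CPM per kb.

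The first comparison, WT CAC against naive WT, asked what AOM-DSS changed in WT colon. Of the 10 ligands, 9 passed the filter on low counts (*Wnt2* did not) and 5 were called at an adjusted p under 0.05, all higher in WT CAC: *Wnt3*, *Wnt4*, *Wnt5a*, *Wnt6* and *Wnt10a*. Of the 15437 genes tested, 15.0% were called, 8.04% higher and 6.92% lower. The median log2 fold change of the 9 ligands was 1.76, and that of all genes tested was 0.02. For these 5 ligands the WT CAC mice did not overlap the naive WT mice, as for 38.0% of all genes tested. A ligand that passed the filter through the group in which it was high could hardly have shown equal groups, which applies to *Wnt3* and *Wnt10a*. The filter asked for about 0.505 CPM in 3 mice, a level that 0 naive WT mice reached for these 2 genes, and the median of the other 7 tested ligands was 0.92. These are bulk values, in which more cells of a type and more RNA per cell cannot be told apart.

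**Figure D2:**
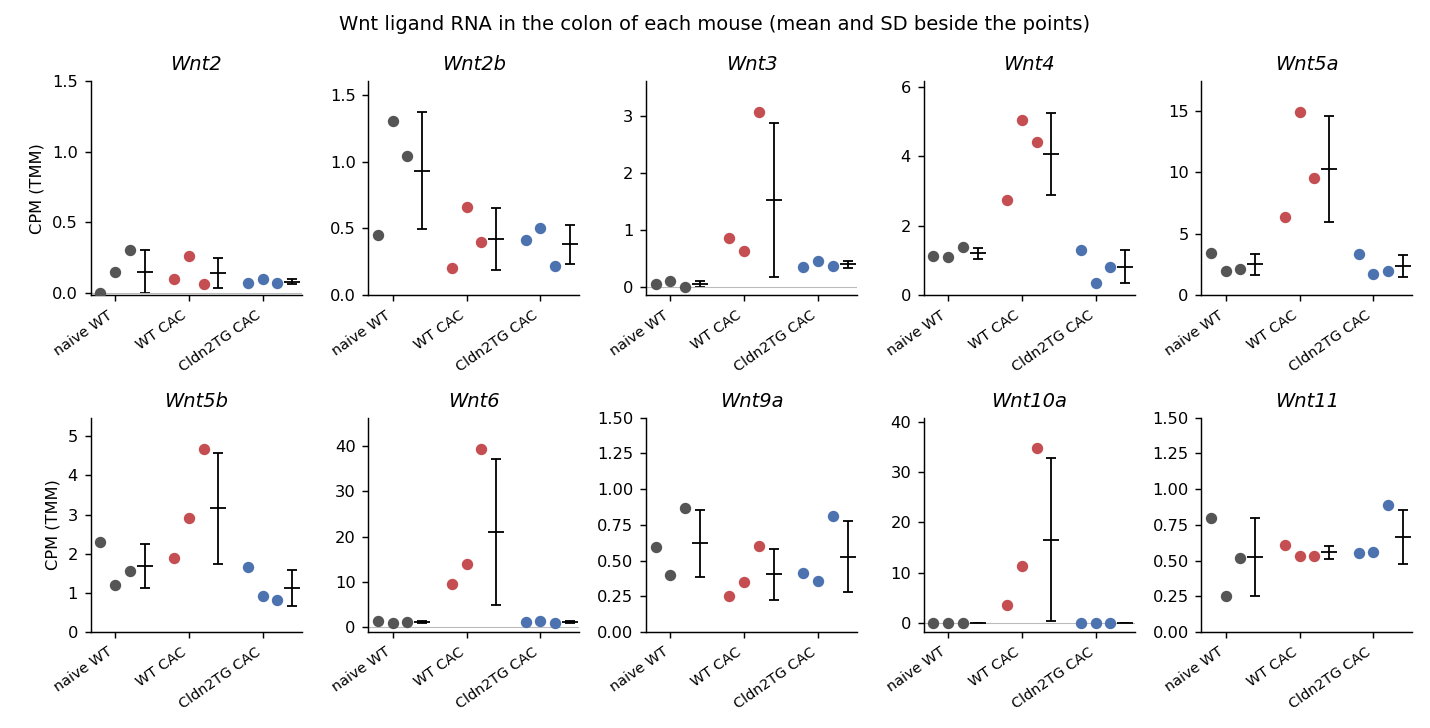
CPM (TMM-scaled) of each ligand in each mouse, with a panel and linear axis of its own for every ligand. Points are mice, and the bar beside them is the group mean with its SD (n = 3). For *Wnt3*, *Wnt4*, *Wnt5a*, *Wnt6* and *Wnt10a* the lowest WT CAC mouse lies above all other mice, and mouse 6 holds the highest value of *Wnt3*, *Wnt6* and *Wnt10a*.

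*Wnt10a* encodes a ligand of the beta-catenin branch best known from teeth, hair and sweat glands. Its raw counts were 2, 0 and 0 in the naive WT mice and 73, 256 and 518 in the WT CAC mice, which corresponds to 3.71, 11.3 and 34.7 CPM. *Wnt10a* was thus close to undetected in every naive mouse and present in every WT CAC mouse, over a wide range. The pooled ratio was 466, with an exact 95% interval from 129 to 3858 that covers counting error only. The fitted log2 fold change of 8.79 ± 1.33 (adjusted p = 0.0133, edgeR) depends on the prior count. *Wnt6*, a ligand known from kidney and limb development, stood at 1.39, 0.854 and 0.999 CPM in naive WT and 9.45, 14.0 and 39.4 CPM in WT CAC mice. The lowest WT CAC mouse held several times the highest naive mouse, and the log2 fold change was 4.29 ± 0.61 (adjusted p = 0.0112). Unlike *Wnt10a*, *Wnt6* was counted in all 3 naive mice, with 17 to 28 reads each.

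*Wnt3*, the ligand through which Paneth cells support stem cells in the small intestine, had 1, 2 and 0 counts in naive WT and 17, 14 and 46 counts in WT CAC mice. The pooled ratio was 28.3, with an exact 95% counting interval from 9.32 to 140. Its fitted log2 fold change was 4.80 ± 0.98 (adjusted p = 0.0221), and the size again depends on the prior count. *Wnt4*, a ligand of kidney and ovary development, rose from 1.15, 1.11 and 1.39 CPM in naive WT to 2.74, 5.04 and 4.42 CPM in WT CAC mice. Its log2 fold change was 1.76 ± 0.31 (adjusted p = 0.0158). *Wnt5a*, the main ligand of the Ror branch, rose from 3.48, 1.96 and 2.13 CPM to 6.35, 14.9 and 9.58 CPM. Its log2 fold change was 2.05 ± 0.37 (adjusted p = 0.0163). For *Wnt4* and *Wnt5a* mouse 5 was highest, whereas mouse 6 was highest for *Wnt3*, *Wnt6* and *Wnt10a*. Mouse 4 was the lowest WT CAC mouse for *Wnt4*, *Wnt5a*, *Wnt6* and *Wnt10a*, and mouse 5 for *Wnt3*.

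The other 4 tested ligands were not called. *Wnt5b*, the closest relative of *Wnt5a*, stood at 2.29, 1.21 and 1.56 CPM in naive WT and 1.88, 2.92 and 4.69 CPM in WT CAC mice, so the groups overlapped. Its log2 fold change was 0.92, with a 95% interval from -0.02 to 1.86 (adjusted p = 0.161). *Wnt5b* overlaps *Fbxl14* on the opposite strand, whose log2 fold change was 0.05. The strand setting of the counting is not given in the sources used here. *Wnt2b*, a ligand made by stromal cells, stood at 0.448, 1.31 and 1.04 CPM in naive WT and 0.203, 0.663 and 0.402 CPM in WT CAC mice. For *Wnt2b* the difference on the log2 scale was -1.09, with an interval from -2.34 to 0.17 (adjusted p = 0.207). *Wnt9a*, known from joint formation, had a log2 fold change of -0.64 (interval -1.73 to 0.45). *Wnt11*, a ligand of cell movements in the embryo, had a log2 fold change of 0.12 (interval -0.94 to 1.17). The untested *Wnt2*, a ligand of early lung development, had 10 counts in the 3 naive WT and 9 in the 3 WT CAC mice.

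With 3 mice against 3 the smallest two-sided exact permutation p is 0.1, and each of the 5 called ligands reached it. Leaving out a naive mouse ended calls, although the folds of the 5 called ligands kept their direction. Without mouse 1, *Wnt5a* and *Wnt6* were still called. Without mouse 2 or mouse 3 none of the ligands passed edgeR's adjusted p, with 0.0626 and 0.0501 for *Wnt6* and 0.0746 and 0.0667 for *Wnt5a*. Calls over all genes fell from 2310 to 135 without mouse 2 and to 404 without mouse 3. The log2 fold change of *Wnt6* lay between 3.45 and 4.64 over the 6 fits with a mouse left out, and that of *Wnt5a* between 1.69 and 2.35. Without mouse 4 *Wnt5b* was called as well (edgeR, adjusted p = 0.0491), and calls over all genes rose from 2310 to 4080.

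The second comparison, *Cldn2*TG CAC against WT CAC, asked what the transgene changed under the same treatment. It shares the 3 WT CAC mice with the first, so the directions are not independent. Of the 6 ligands tested, 4 were called, all lower in *Cldn2*TG CAC mice: *Wnt4*, *Wnt5a*, *Wnt6* and *Wnt10a*. *Wnt10a* and the uncalled *Wnt3* passed the filter through the WT CAC mice alone, as 0 transgenic mice reached its level of 0.587 CPM, and for *Wnt4* 2 of 3 did. A lower value was therefore nearly fixed for *Wnt3* and *Wnt10a*. Of the 14888 genes tested, 9.54% were called, 2.19% higher and 7.35% lower. The median log2 fold change was -2.25 over the 4 tested ligands other than *Wnt3* and *Wnt10a* and 0.01 over all genes tested. *Wnt2*, *Wnt2b*, *Wnt9a* and *Wnt11* did not pass the filter, and their groups of mice overlapped. Those of the 6 tested ligands did not, against 28.5% of all genes tested.

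*Wnt10a* had 1, 2 and 0 counts in the *Cldn2*TG CAC mice, against 73, 256 and 518 in the WT CAC mice. The pooled ratio of WT CAC to *Cldn2*TG CAC was 236, with an exact 95% counting interval from 80.4 to 1145, and the fitted log2 fold change was -7.91 ± 1.24 (adjusted p = 0.0141). *Wnt6* stood at 1.17, 1.22 and 0.960 CPM in the *Cldn2*TG CAC mice, each below the lowest WT CAC mouse at 9.45 CPM. Its log2 fold change was -4.23 ± 0.60 (adjusted p = 0.0102). The neighbors on chromosome 1 were thus both low in all 3 transgenic mice.

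*Wnt4* stood at 1.31, 0.355 and 0.813 CPM in the *Cldn2*TG CAC mice, with a log2 fold change of -2.35 ± 0.47 against WT CAC (adjusted p = 0.0191). *Wnt5a* stood at 3.38, 1.72 and 2.0 CPM, with a log2 fold change of -2.15 ± 0.38 (adjusted p = 0.0141). In both genes mouse 7 was the highest transgenic mouse and still lay below all WT CAC mice. *Wnt5b* stood at 1.65, 0.912 and 0.813 CPM, below the lowest WT CAC mouse at 1.88 CPM, but missed the threshold with a log2 fold change of -1.5 ± 0.44 (adjusted p = 0.0684). DESeq2 called *Wnt5b* (adjusted p = 0.0301), and its adjusted p over the alternatives without a mouse left out ranged from 0.0301 to 0.131. *Wnt3* stood at 0.344, 0.456 and 0.369 CPM, from 5, 9 and 5 counts. Its log2 fold change was -1.91 ± 0.67 (adjusted p = 0.118).

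Leaving out a transgenic mouse ended calls here. Without mouse 7, *Wnt4* and *Wnt5a* were still called, with adjusted p of 0.0554 for *Wnt6* and 0.0688 for *Wnt10a*. Without mouse 8 or mouse 9 none of the ligands passed edgeR's adjusted p, with 0.0670 and 0.0658 for *Wnt6* and 0.0783 and 0.0822 for *Wnt5a*, and calls over all genes fell from 1421 to 58 and 108. *Wnt4* was also lost without mouse 5 (adjusted p = 0.0649) or mouse 6 (0.0517). The log2 fold change of *Wnt6* stayed between -4.57 and -3.38 and that of *Wnt4* between -2.84 and -1.94 in these fits.

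**Figure D3:**
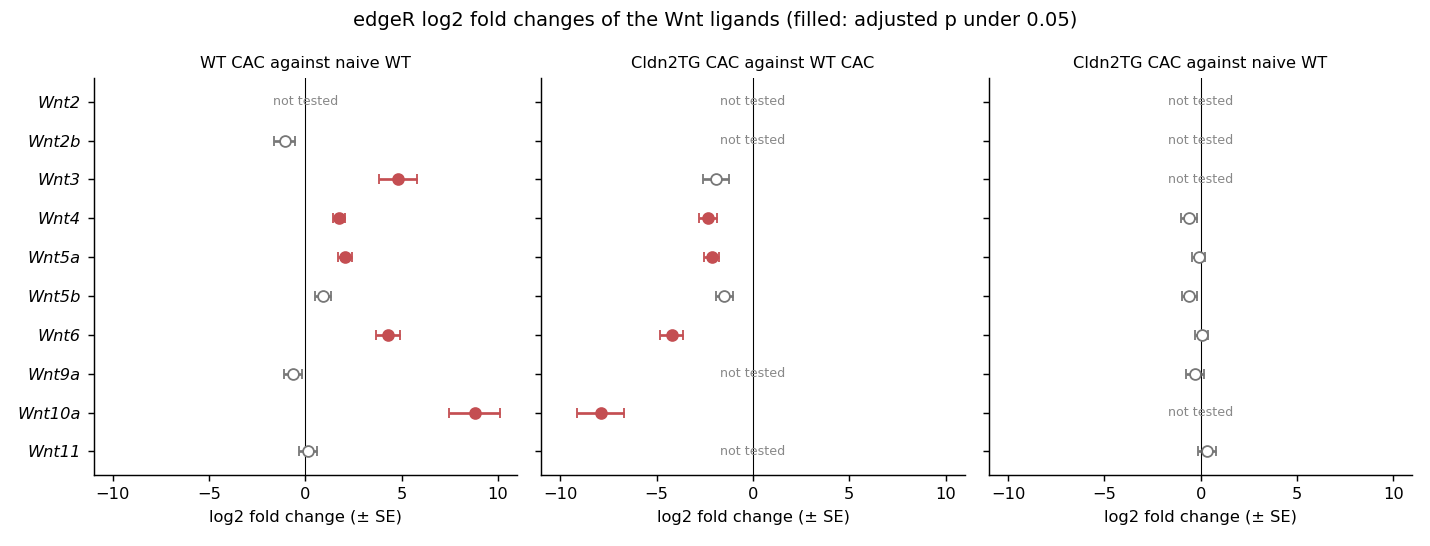
edgeR log2 fold change with its SE for each ligand in the 3 comparisons, filled where the adjusted p is under 0.05. WT CAC against naive WT holds 5 filled points, all to the right of 0, *Cldn2*TG CAC against WT CAC holds 4, all to the left, and *Cldn2*TG CAC against naive WT holds none. The 3 panels share groups of mice pairwise, and the values of *Wnt10a* and *Wnt3* depend on the prior count.

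The third comparison, *Cldn2*TG CAC against naive WT, shares mice with both others, and genotype and treatment cannot be told apart in it. Of the 6 ligands tested, 0 were called by edgeR, 0 by DESeq2 and 0 at an unadjusted p under 0.05, while 10.0% of the 15013 genes tested were called by edgeR, 3.92% higher and 6.07% lower. Of the same genes DESeq2 called 11.9%, and 26.0% had an unadjusted p under 0.05. The log2 fold change of *Wnt6* was 0.06, with a 95% interval from -0.66 to 0.78. For *Wnt5a* it was -0.10 (interval -0.84 to 0.64), for *Wnt4* -0.59 (-1.54 to 0.35) and for *Wnt5b* -0.58 (-1.41 to 0.24). *Wnt9a* and *Wnt11* had log2 fold changes of -0.29 (-1.32 to 0.75) and 0.33 (-0.72 to 1.37). These intervals reach down to -1.54 and up to 1.37, so equality was not shown. *Wnt3* did not pass the filter, but its 5, 9 and 5 counts in the transgenic mice did not overlap the 1, 2 and 0 counts in the naive mice. The groups did not overlap in 31.2% of all genes tested. The pooled *Wnt3* ratio was 8.35, with an exact 95% counting interval from 2.46 to 44.1. Without a filter *Wnt3* was called (edgeR, adjusted p = 0.0137), but the other alternative that tested it did not call it (edgeR, adjusted p = 0.149). *Wnt10a* had 3 counts in the transgenic and 2 in the naive group. With library size alone as scaling, the median of all genes moved from 0.00 to -0.11 and *Wnt6* to -0.05, and the calls over all genes were 276 higher and 1310 lower in place of 589 and 912.

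Genes around *Wnt6* and *Wnt10a* were examined within 100 kb. The 5 other tested genes there were *Ttll4*, *Cyp27a1*, *Cdk5r2*, *Fev* and *Cryba2*. *Cyp27a1*, a mitochondrial sterol hydroxylase, was higher in WT CAC than in naive WT mice with a log2 fold change of 1.30 (adjusted p = 0.0185) and had -0.73 in *Cldn2*TG CAC against WT CAC (adjusted p = 0.0717). The remaining 4 were not called in either comparison, with log2 fold changes from -0.88 for *Cdk5r2* to 0.51 for *Cryba2* in the first. Beside *Wnt3*, *Gosr2* and *Nsf* had log2 fold changes of 0.11 and 0.35 in WT CAC against naive WT. Beside *Wnt4*, *Cdc42* had -0.13 and 2810405F17Rik 0.01, and none of these 4 was called.

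**Figure D4:**
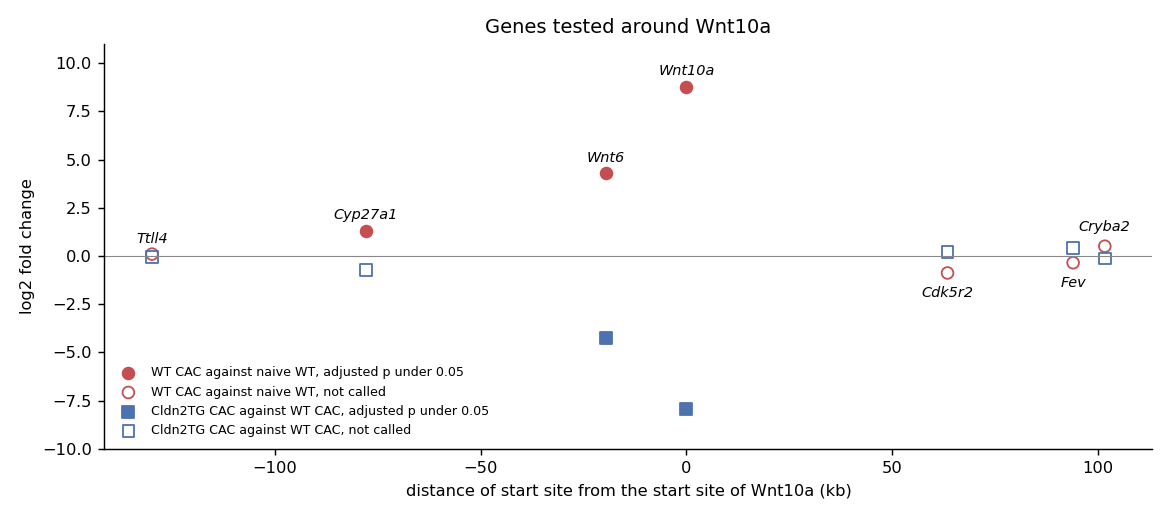
log2 fold change of the genes tested within 100 kb of *Wnt10a*, against the distance of their start sites from that of *Wnt10a* in kb. Circles are WT CAC against naive WT and squares *Cldn2*TG CAC against WT CAC, filled where the adjusted p is under 0.05. *Wnt6* and *Wnt10a* lie far from 0 in both comparisons, *Cyp27a1* is called in the first, and *Ttll4*, *Cdk5r2*, *Fev* and *Cryba2* are not called, with values from -0.88 to 0.51.

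Likeness was measured over the 9 mice as Pearson's r of log2 CPM among 13892 genes, as a description. The mice fall into groups that differ in many genes, so high r values are common. The gene most like *Wnt6* was *Wnt10a* (r = 0.997), followed by *Limd2* (0.993) and *Gata5* (0.992). *Wnt10a* was most like *Wnt6*, *Notumos* (0.996) and *Irx5* (0.994). *Wnt3* was most like *Hes6* (0.986), *Tspo* (0.975) and *Nradd* (0.974). *Wnt4* was nearest to *Igkc* (0.982), the constant region of the kappa immunoglobulin chain, *Svep1* (0.978) and *Ednra* (0.977). *Wnt5a* was nearest to *Tyrobp* (0.979), an adaptor protein of myeloid cells, *Itgax* (0.979) and *Csf2rb2* (0.977). *Wnt4* and *Wnt5a* had r = 0.928 with each other.

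Markers of several other cell types differed between the same groups. The 5 leukocyte markers (*Ptprc*, *Cd3e*, *Cd79a*, *Cd68* and *Csf1r*) summed to 12.3 to 27.0 CPM in naive WT, 41.0 to 68.4 in WT CAC and 10.3 to 17.3 in *Cldn2*TG CAC mice. Of these 5, 3 were called higher in WT CAC than in naive WT (8.04% of all genes) and 4 lower in *Cldn2*TG CAC than in WT CAC mice (7.35%). The 6 fibroblast markers summed to 292 to 422, 446 to 1119 and 181 to 260 CPM in the same order. EdgeR called 0 of these 6 in WT CAC against naive WT, with 4 at an unadjusted p under 0.05 (32.6% of all genes) and 3 called by DESeq2 (20.9%), and *Col1a1* in mouse 4 (39.3 CPM) lay within the naive mice. Against WT CAC, edgeR called 2 of the 6 lower in the transgenic mice (7.35% of all genes), with 6 at an unadjusted p under 0.05 (23.5%) and 6 called by DESeq2 (13.9%). In mouse 5, which was highest for *Wnt4* and *Wnt5a*, the fibroblast sum was 1119 CPM and the leukocyte sum 68.4 CPM, each the highest of the 9 mice. The 4 markers of fibroblasts below the epithelium summed to 41.7 to 63.3, 90.6 to 166 and 59.2 to 77.6 CPM, and *F3* made up most of each sum. *Foxl1* stood at 0.603 to 1.09, 3.05 to 7.03 and 0.222 to 0.620 CPM, and *Bmp5* at 1.21 to 2.59, 1.42 to 6.50 and 0.0739 to 1.79 CPM. EdgeR called *F3* and *Foxl1*, 2 of the 4, higher in WT CAC than in naive WT mice (8.04% of all genes). Between the CAC groups it called 1 of the 4, *Foxl1*, lower in the transgenic mice (7.35%), and DESeq2 called 4 (13.9%). The 5 Paneth cell markers, led by *Lyz1*, summed to 5.17 to 8.12, 160 to 1644 and 13.7 to 29.9 CPM, and 4 of the 4 tested were called higher in WT CAC than in naive WT mice (8.04% of all genes). *Defa24* and *Mmp7* passed the filter through the WT CAC mice alone. Against WT CAC, edgeR called 1 of the 4, *Lyz1*, lower in the transgenic mice (7.35% of all genes), and DESeq2 called 4 (13.9%). Of the 3 WT CAC mice, mouse 6 had the sum of 1644 CPM and was the highest for *Wnt3*, *Wnt6* and *Wnt10a*. The 8 markers of squamous epithelium summed to 2.59 to 3.04, 20.7 to 61.3 and 4.21 to 5.44 CPM. *Krt14* and *Krt13* made up most of the sum in the WT CAC mice, while *Krt5*, *Trp63* and *Ivl* had at most 3 counts in every mouse. Of the 4 squamous markers tested, 3 were called higher in WT CAC than in naive WT mice (8.04% of all genes), of which *Krt4* passed the filter through the WT CAC mice alone, and 2 lower in *Cldn2*TG CAC than in WT CAC mice (7.35%). The 3 neutrophil markers summed to at most 0.782 CPM in naive WT, 2.03 to 47.5 in WT CAC and at most 0.456 CPM in *Cldn2*TG CAC mice. Mesothelial markers (3 genes) summed to 5.47 to 10.9, 11.7 to 30.3 and 0.276 to 7.35 CPM, but they did not move together. *Msln* alone carried the higher sum, with 2.52 to 5.67 CPM in naive WT and 11.2 to 30.0 in WT CAC mice, while *Upk3b* stood at 2.48 to 6.68 and 0.268 to 2.52 CPM and the rare *Wt1* overlapped. The part of these cell types in the ligand values was not tested. The sums of smooth muscle and endothelial markers in WT CAC mice overlapped those of naive WT mice (smooth muscle 915 to 2504 against 1751 to 3297 CPM), and the sum of neuronal and glial markers lay below (7.56 to 16.8 against 20.7 to 33.9 CPM). The 3 endothelial markers summed to 22.3 to 26.5 CPM in naive WT, 20.1 to 29.3 in WT CAC and 9.53 to 13.0 in *Cldn2*TG CAC mice. Of these, 2 were called lower in *Cldn2*TG CAC than in WT CAC mice (7.35% of all genes) and 3 lower than in naive WT mice (6.07%). EdgeR also called 5 of 5 neuronal and glial markers lower in *Cldn2*TG CAC than in naive WT mice (6.07% of all genes), and DESeq2 called 4 (11.9%). Of the 5, *Sox10* and *S100b* passed the filter through the naive mice alone. Of the 5 smooth muscle markers edgeR called 2 lower in the same comparison (6.07% of all genes), with 5 at an unadjusted p under 0.05 (26.0%) and 5 called by DESeq2 (11.9%). Of the 6 fibroblast markers it called 1, *Col1a2*, lower, and DESeq2 called 3. EdgeR called *Lyz1* (1 of 3 Paneth markers), *F3* (1 of 4 below the epithelium) and *Krt8* (1 of 7 epithelial) higher (3.92% of all genes). Their log2 fold changes were 2.04, 0.72 and 0.43. DESeq2 called 3 of 3 Paneth markers (11.9%), of which *Mmp7* passed the filter through the transgenic mice alone.

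The other genes of the pathway give the setting of the ligands. In their lists 72, 67 and 66 genes were tested in the 3 comparisons, and 17, 18 and 14 were called, against 15.0%, 9.54% and 10.0% of all genes. Some of these passed the filter through 1 group alone, since 0 mice of the lower group reached its level, and could hardly have shown equal groups. In the first comparison 5 of the 17 were such genes (*Fzd10*, *Notum*, *Lgr6*, *Lef1* and *Sp5*), in the second 5 of the 18 (*Fzd10*, *Frzb*, *Dkk2*, *Lgr6* and *Sp5*) and in the third 4 of the 14 (*Frzb*, *Notum*, *Rspo1* and *Pygo1*). Of the 9 remaining Wnt genes, *Wnt8b* alone was tested. It stood at 3.35 ± 0.662 CPM in naive WT, 1.40 ± 0.986 in WT CAC and 2.46 ± 0.173 in *Cldn2*TG CAC mice and was not called in any comparison. Per length its means were 0.992, 0.415 and 0.729 CPM per kb, above all 10 ligands in naive WT and *Cldn2*TG CAC mice. The sums and shares of the 10 ligands leave it out. The WT CAC mice lay below the naive mice (0.796 to 2.54 against 2.69 to 4.02 CPM), and groups did not overlap for 38.0% of all genes tested. The log2 fold change was -1.22 (edgeR, adjusted p = 0.115), with an unadjusted p under 0.05 (32.6% of all genes). *Wnt10b*, the relative of *Wnt10a* on another chromosome, had 17, 13 and 13 counts per group. *Wnt16* and *Wnt7b* were rare. *Wnt16* had 3, 8 and 37 counts in the WT CAC mice, so that mouse 6 held most of the 48, against 2 in naive WT and 3 in *Cldn2*TG CAC mice. The pooled ratio to naive WT was 26.4, with an exact 95% counting interval from 6.93 to 224, while mouse 4 (0.152 CPM) lay beside transgenic mouse 7 (0.138 CPM). *Wnt7b* had 7, 5 and 6 counts in the WT CAC mice against 2 and 1 in the other groups, a pooled ratio to naive WT of 9.91 (2.37 to 88.1). The 8 genes for making and exporting Wnt proteins were all tested, and edgeR called 0 of them in each comparison. At an unadjusted p under 0.05 there were 2, *Snx3* and *Vps26a*, in WT CAC against naive WT (32.6% of all genes), of which DESeq2 called *Snx3* (log2 fold change -0.29, adjusted p = 0.0418), and otherwise only *Vps26a* in *Cldn2*TG CAC against naive WT. The 2 most abundant per length, the sorting proteins *Snx3* and *Vps35*, had log2 fold changes of -0.29 and -0.25 in WT CAC against naive WT.

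Among 18 receptors and coreceptors, edgeR called 1 higher and 4 lower in WT CAC than in naive WT mice (8.04% and 6.92% of all genes), with a median of -0.33. *Fzd10*, a Frizzled receptor, rose from 0.141 ± 0.0373 to 1.30 ± 0.538 CPM and stood at 0.181 ± 0.0986 CPM in *Cldn2*TG CAC mice (adjusted p = 0.0117 and, lower against WT CAC, 0.0196). *Fzd8* and *Fzd4* fell by 1.27 and 1.15 on the log2 scale in WT CAC against naive WT (adjusted p = 0.00834 and 0.0240), and the coreceptors *Lrp6* and *Ror1* were the other 2 called lower. In *Cldn2*TG CAC against WT CAC 16 were tested, *Fzd7* was called higher and *Fzd10* and *Ptk7* lower (2.19% and 7.35% of all genes). *Ryk* and *Fzd5*, the most abundant per length, had log2 fold changes of -0.10 and -0.09 in the first comparison. Leaving out mouse 2 ended the calls of *Fzd10*, *Fzd8* and *Fzd4* (adjusted p = 0.0655, 0.0555 and 0.0913). The call of *Fzd10* was also lost without mouse 3 (0.0520) and that of *Fzd4* without mouse 3, 5 or 6 (0.0727, 0.0600 and 0.0636). The third comparison called 3 of 16 lower in the transgenic than in the naive mice (6.07% of all genes). *Fzd4*, *Fzd2* and *Fzd8* fell by 1.22, 1.17 and 0.68 on the log2 scale (adjusted p = 0.0101, 0.0124 and 0.0234). The call of *Fzd8* was lost with all 9 mice in the fit (0.0704) and in 5 of the 6 fits with a mouse left out, the exception being mouse 7. With all 9 mice in the fit, calls over all genes in this comparison fell from 1501 to 445.

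Of the 9 secreted inhibitors tested, 3 were called higher and 1 (*Sfrp5*) lower in WT CAC than in naive WT mice (8.04% and 6.92% of all genes), with a median of 1.06. *Notum*, the enzyme that strips the lipid from Wnt proteins, went from 0.143 ± 0.0114 CPM in naive WT to 51.7 ± 41.2 in WT CAC and 0.705 ± 0.157 in *Cldn2*TG CAC mice. *Wif1*, which binds Wnt proteins directly, stood at 1.11 ± 0.293, 111 ± 82.7 and 2.65 ± 0.234 CPM. *Dkk2*, which binds Lrp6, stood at 0.388 ± 0.161, 16.8 ± 15.0 and 0.201 ± 0.111 CPM. In *Cldn2*TG CAC against WT CAC 6 of 8 were called lower, namely *Notum*, *Wif1*, *Dkk2*, *Dkk3*, *Sfrp1* and *Frzb* (7.35% of all genes), with a median of -2.01. Between *Cldn2*TG CAC and naive WT mice 2 of 8 were called higher in the former and 4 lower (3.92% and 6.07% of all genes), with a median of -1.04. *Sfrp1*, *Frzb*, *Dkk3* and *Sfrp5* fell by 1.76, 2.28, 1.31 and 1.21 on the log2 scale (adjusted p = 0.00402, 0.00800, 0.0165 and 0.0260). The call of *Sfrp5* was lost with lane 1 only and without any 1 of the 6 mice, and that of *Dkk3* without mouse 3, 8 or 9 and with all 9 mice in the fit. *Notum* and *Wif1* were higher, by 2.24 ± 0.48 and 1.26 ± 0.29 on the log2 scale (adjusted p = 0.0170 and 0.0236). Both calls were lost with all 9 mice in the fit (0.290 and 0.408), where calls over all genes fell from 1501 to 445. The calls of *Notum* and *Wif1* were also lost without mouse 3 (0.0764 and 0.0969), mouse 8 (0.0507 and 0.0606) or mouse 9 (0.0639 and 0.0644), and that of *Wif1* without mouse 7 (0.0521). Over all genes 525, 615 and 813 were called without mouse 3, 8 and 9, and 1383 without mouse 7.

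Of the R-spondins, their receptors and the ligases they control, 1 of 7 was called in WT CAC against naive WT and 1 of 6 in *Cldn2*TG CAC against WT CAC, against 15.0% and 9.54% of all genes. Both times it was the receptor *Lgr6*, which passed the filter through the WT CAC mice alone. It had 7, 381 and 2 counts in the 3 groups, with 41, 123 and 217 in the WT CAC mice. The pooled ratio of WT CAC to *Cldn2*TG CAC was 159, with an exact 95% counting interval from 43.7 to 1318. *Lgr4* and *Rnf43*, the most abundant per length, had log2 fold changes of -0.11 (adjusted p = 0.638) and 0.90 (adjusted p = 0.0823) in WT CAC against naive WT. Of 17 genes acting inside the cell, the transcription factors *Lef1* and *Tcf7* were called higher in WT CAC and, of 16, lower in *Cldn2*TG CAC mice. Over all genes tested, 8.04% and 7.35% were called in those directions, and 2 of 17 is below the 15.0% called in either direction in the first comparison. *Lef1* stood at 0.282 ± 0.114, 8.90 ± 6.11 and 0.536 ± 0.245 CPM, and *Tcf7* at 5.97 ± 0.555, 20.5 ± 8.67 and 7.62 ± 0.554 CPM. *Ctnnb1*, which encodes beta-catenin, had a log2 fold change of 0.13 ± 0.14. Against naive WT, the transgenic mice were called higher in *Tcf7l2* (log2 fold change 0.42) and lower in *Pygo1* (-1.67) and, among the R-spondins, *Rspo1* (-1.80), with adjusted p of 0.0325, 0.0456 and 0.0466. With all 9 mice in the fit none of these 3 was called by edgeR (0.145, 0.0609 and 0.0849), where 445 genes in all were called in place of 1501. *Pygo1* and *Rspo1* were also lost without any 1 of the 6 mice and with DESeq2 (0.145 and 0.0721), and *Tcf7l2* without any 1 of them but mouse 9.

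Of 12 beta-catenin targets, 5 were called higher in WT CAC than in naive WT mice (*Sp5*, *Apcdd1*, *Prox1*, *Nkd1* and *Ascl2*; 8.04% of all genes), with a median log2 fold change of 1.07. In *Cldn2*TG CAC against WT CAC 5 were called lower and 1, *Ephb3*, higher (7.35% and 2.19% of all genes), with a median of -0.71. *Sp5*, a repressor induced by Wnt, had 1, 885 and 11 counts in the 3 groups, with 82, 312 and 491 in the WT CAC mice. The pooled ratio of WT CAC to naive WT was 975, with an exact 95% counting interval from 174 to 38540. *Apcdd1*, an inhibitor at the cell surface, stood at 1.03 ± 0.372, 42.1 ± 24.1 and 0.992 ± 0.465 CPM. *Nkd1*, a feedback inhibitor inside the cell, stood at 6.85 ± 0.946, 123 ± 98.4 and 3.44 ± 1.58 CPM. *Sox9* and *Ccnd1*, the most abundant per length, had log2 fold changes of 0.42 and 0.46 in the first comparison and were not called. The third comparison called 2 of 11 targets higher in the transgenic than in the naive mice (3.92% of all genes), *Sox9* by 0.61 ± 0.12 and *Ascl2* by 0.98 ± 0.20 on the log2 scale (adjusted p = 0.0109 and 0.0154). With all 9 mice in the fit neither was called (0.0542 and 0.120), and *Ascl2* was also lost without mouse 3 (0.0649) or mouse 8 (0.0709). Over all genes 445, 525 and 615 were called in these settings, in place of 1501. Between the CAC groups *Ascl2* had a log2 fold change of -0.30 (adjusted p = 0.685). Over the 7 lists together, the count of 17 called in the first comparison became 1 without mouse 2 and 30 without mouse 4, and the 18 of the second became 0 without mouse 8 or mouse 9. Calls over all genes went from 2310 to 135 and 4080 in the first and from 1421 to 58 and 108 in the second.

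**Figure D5:**
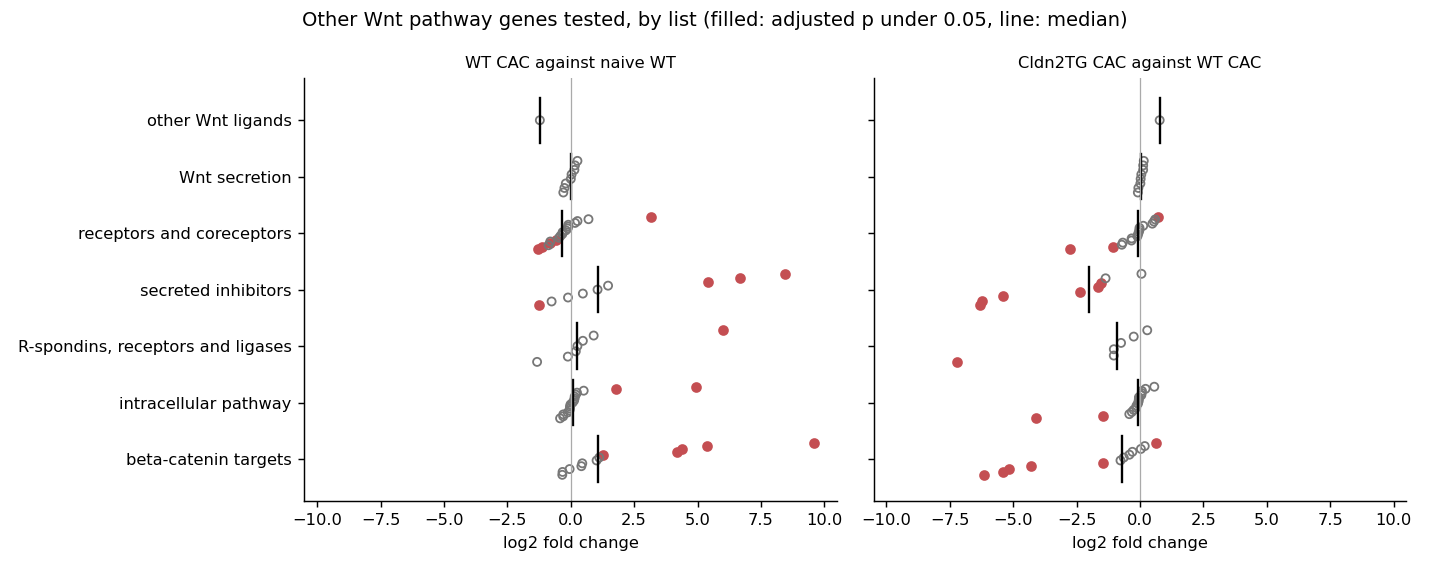
log2 fold change of the other Wnt pathway genes tested, by list, in WT CAC against naive WT (left) and *Cldn2*TG CAC against WT CAC (right). Each point is a gene, filled where the adjusted p is under 0.05, and the vertical line is the median of the list. Most called inhibitors and targets lie to the right of 0 in the left panel (3 and 5 called higher, with *Sfrp5* called lower) and to the left of 0 in the right panel (6 and 5 called lower, with *Ephb3* called higher), while the 8 secretion genes stay near 0 in both.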

How the data were processed

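Colon RNA of 9 mice was sequenced, each library in 2 lanes. The authors mapped the reads (TopHat2 in the study's methods, HISAT2 in the submitters' processing notes, to GRCm38) and counted them on genes with featureCounts of the Subread package. Versions, strand setting and annotation release are not given in the sources used here. The deposited table holds raw counts for 47729 genes and an exon length per gene. Lanes were summed to 1 library per mouse. GENCODE M21 gave symbols for 47224 identifiers, and 505 had none. Each comparison was fitted on its 6 mice with edgeR 4.0.16 in R 4.3.3 (TMM, filterByExpr with a minimum count of 10 and a minimum total of 15, robust quasi-likelihood fit, two-sided test, Benjamini-Hochberg adjustment over all genes tested), with a call at an adjusted p under 0.05. SEs and 95% intervals come from that fit. P-values set each difference against the spread between the 3 mice of a group, which the fit moderates over all genes tested. CPM use TMM factors over all 9 mice. Pooled ratios to a group with 1 to 3 counts carry an exact counting interval, which covers counting error only. Likeness used log2 CPM (prior count 2) of genes with a mean of at least 1 CPM. Named beside the ligands were, in each list, the 3 called genes with the largest change, the 2 with the highest level per length and the genes behind small counts; 1 of the genes so chosen is not reported here. Genes named as most alike were the 3 with the highest r for each called ligand. The ligands, lists and tests were chosen with earlier results of these data known. The alternatives were DESeq2 1.42.0, library size only, upper-quartile normalization, a stricter filter (10 counts or more in every mouse) or none, 1 fit of all 9 mice, single lanes, other call thresholds, leaving out each mouse and, for shares, no length correction. The fits were tested on simulated data in which only well-counted genes were changed and every gene had the same dispersion. That test does not cover ligands with few counts or a wide spread between mice. Python 3.11.15 (pandas 2.3.3, numpy 2.4.6, matplotlib 3.10.9, scipy 1.17.1) was used for summaries and plots.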

Additional observations from a re-analysis of the deposited data

How the results depend on the processing

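With at least 10 counts in every mouse, a filter that removes ligands absent from a group, 3 ligands (*Wnt4*, *Wnt5a*, *Wnt6*) were called in WT CAC against naive WT and 2 (*Wnt5a*, *Wnt6*) were called in the second comparison, in place of 5 and 4. Over all genes 1890 of 13696 and 908 of 13192 were then called, in place of 2310 of 15437 and 1421 of 14888. With no filter 1, *Wnt3*, was called in *Cldn2*TG CAC against naive WT, in place of 0, and 2567 of 25909 genes in all. The other alternative that tested *Wnt3* there did not call it (edgeR, adjusted p = 0.149). Leaving out each mouse in turn gave 0 to 6, 0 to 5 and 0 called ligands in the 3 comparisons. Over the pathway lists, leaving out each mouse gave 1 to 30 calls in WT CAC against naive WT, 0 to 27 in the second comparison and 5 to 11 in the third, in place of 17, 18 and 14. Calls over all genes in the same fits ranged from 135 to 4080, 58 to 2894 and 525 to 1383, in place of 2310, 1421 and 1501. An unadjusted p under 0.05 gave 29, 28 and 26 pathway genes (32.6%, 23.5% and 26.0% of all genes). At least 10 counts in every mouse gave 10 in the second, with 908 of 13192 genes called in all. All 9 mice in the fit and lane 1 only gave 5 and 9 in the third, with 445 of 15712 and 1131 of 13632 genes called in all. The ligand fold changes that changed sign had not been called. In *Cldn2*TG CAC against naive WT, *Wnt6* moved from 0.06 to -0.32 with lane 1 only and -0.052 with library size only, and *Wnt5a* from -0.10 to 0.23 with lane 1 only. With a mouse left out, *Wnt5a* ranged from -0.45 to 0.21 (positive values 0.0025, 0.098 and 0.21), *Wnt6* from -0.08 to 0.28 (negative values -0.081, -0.015 and -0.0030) and *Wnt9a* from -0.71 to 0.036 in that comparison, and *Wnt11* from -0.21 to 0.54 in WT CAC against naive WT. Of 143 ligand fold changes under other settings with all mice, 135 kept direction and call, and *Wnt10a* lost its call without a filter in both comparisons (adjusted p = 0.0512 and 0.0707). With a mouse left out, 25 of 125 ligand fold changes and 64 of 156 of the named pathway genes lost their call. The 125 include ligands without a call to lose. In WT CAC against naive WT the call held in 3 of 6 such fits for *Wnt3*, *Wnt4* and *Wnt10a* and in 4 for *Wnt5a* and *Wnt6*. In the second comparison it held in 2 of 6 for *Wnt4*, 3 for *Wnt6* and *Wnt10a* and 4 for *Wnt5a*. The cause of these shifts was not tested, and fits with a mouse left out hold 2 mice in a group. Without length correction *Wnt6* took 34.7% of the ligand sum in WT CAC mice in place of 46.1%, and *Wnt5a* 21.2% in place of 8.24%. Counts of *Wnt2*, *Wnt3* and *Wnt10a* at 0 to 9 per mouse outside WT CAC limit any comparison of *Cldn2*TG CAC with naive WT. No paired analysis was possible because the groups share no replicate numbers.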
